A study of Mus musculus with 7 samples.

Results

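The 10 genes described here encode parts of the smooth muscle contractile apparatus and its regulator: Cnn1, Cnn2, Lmod1, Tagln, Myocd, Smtn, Mylk, Cald1, Synpo2 and Des. They were chosen by name, and all 10 were found by gene symbol in the platform annotation, each with 1 probe set, among 19505 named genes. Their signals were read on all 7 arrays of a study of direct reprogramming of mouse embryonic fibroblasts (MEFs) towards heart muscle. The Affymetrix Clariom S mouse array, which measures transcripts with short probes in 1 colour, was used on total RNA. The study asked how the form of Mef2c delivered with Gata4 and Tbx5 changes expression, and what part the acetyltransferase p300 (Ep300) plays.

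Each group was 1 array. The MEF array held fibroblasts with no treatment. All transduced cells had received retroviruses for Gata4 and Tbx5. They had also received a retrovirus for Mef2c: GT/M1 stands for isoform 1, GT/M2 for isoform 2 and GT/M6 for isoform 6. In GT/M2TAD, isoform 2 was fused with the MyoD activation domain. The arrays siCtrl and siEp300 held transduced cells that also received control siRNA or siRNA against Ep300. Titles of the siRNA samples give plain isoform 2 and their other labels give the fused form, so the form of Mef2c in those cells is not settled. Per the labels' protocols, medium was changed 24 h after infection and cells were harvested after 1 week, with no separate time for untreated cells. No cells with an empty virus were analysed here, and neither mouse strain nor viral promoter was given in the sources used here. In a difference from MEF, the delivered factors, the virus itself and the week of culture cannot be told apart. With 1 array per group there is no spread between replicates and no test, so every difference below is between 2 single arrays, and neighbours in any order of arrays cannot be separated from array-to-array error.

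Smooth muscle shortens when calcium and calmodulin activate myosin light chain kinase, which phosphorylates the regulatory light chain of myosin and lets it pull on actin. Calponins, caldesmon and smoothelin sit on the actin filaments, leiomodin nucleates them, and desmin filaments tie the contractile lattice together. Many of these genes are classical targets of serum response factor (SRF), a DNA-binding protein that acts at a sequence called the CArG box with coactivators of the myocardin family. Cultured fibroblasts can express many of them, and embryonic heart muscle transiently does so too.

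Sequence upstream of the members was taken from RefSeq promoter windows of the GRCm38.p6 build, 300 bases long, from 250 before to 50 after a gene's start. The table held 9 such windows for 8 of the 10 genes, and Tagln and Myocd were not among them. The first pair shown belongs to Cnn1 and Des, the members furthest below and furthest above the MEF array, and gives the last 100 bases before each start. The Cnn1 stretch lies at chr9:22099153-22099252 on the plus strand and the Des stretch at chr1:75360192-75360291 on the plus strand.
Cnn1: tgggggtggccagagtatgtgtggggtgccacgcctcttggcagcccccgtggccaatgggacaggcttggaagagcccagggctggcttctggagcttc
Des: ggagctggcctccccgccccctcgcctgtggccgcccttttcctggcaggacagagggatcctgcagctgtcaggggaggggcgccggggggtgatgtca
The windows were searched on both strands for the CArG box, for the MEF2 box that binds Mef2c, and for the MCAT box CATTCC that binds TEAD factors. No match was found for either gene. The table's start for Mylk lies inside the gene body, so its window is that of an inner start.

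The stretches below, 60 bases each, show every match that was found, with the matched letters in capitals. Cnn2 lies at chr10:79988519-79988578 (plus strand) and holds a CArG box that reads the same on both strands, beginning 56 bases before the start. Synpo2 lies at chr3:123236340-123236399 (minus strand) and holds a MEF2 box beginning 236 bases before the start. The other stretches hold an MCAT box, which reads GGAATG where it is on the opposite strand: Smtn at chr11:3539480-3539539 (minus strand), Mylk at chr16:34784767-34784826 (plus), Lmod1 at chr1:135324658-135324717 (plus) and Cald1 at chr6:34598326-34598385 (plus).
Cnn2: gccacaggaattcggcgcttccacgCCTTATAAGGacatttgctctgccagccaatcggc
Synpo2: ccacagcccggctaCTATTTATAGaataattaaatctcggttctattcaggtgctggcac
Smtn: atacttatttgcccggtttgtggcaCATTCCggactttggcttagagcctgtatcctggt
Mylk: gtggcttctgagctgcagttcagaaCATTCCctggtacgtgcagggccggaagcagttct
Lmod1: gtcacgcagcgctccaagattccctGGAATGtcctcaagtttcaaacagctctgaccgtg
Cald1: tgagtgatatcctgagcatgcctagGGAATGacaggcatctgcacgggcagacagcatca
A CArG box was in 1 of the 9 member windows and in 1.63% of all 32851 windows, and a MEF2 box in 1 of 9 and in 3.19%. An MCAT box was in 4 of 9 and in 14.7%. These are matches of letters in short windows, and they show neither binding nor its absence, nor that a factor acts from outside the window.

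Signals are log2 values, so a step of 1 is a 2-fold difference. Median signals over all named genes lay between 5.38 and 5.71, and the level exceeded by 5% of negative-control probes (their 95th percentile) between 8.43 and 9.33, on the 7 arrays. The counts below take a gene as 2-fold different if its signals differ by 1 or more and the higher one reaches the median of named genes on its array, called the floor. Mef2c lay at 8.24 on MEF and between 18.32 and 18.87 on the 6 transduced arrays. Tbx5 lay at 5.72 on MEF and between 16.14 and 16.23 on the 4 transduced arrays without siRNA. On siCtrl and siEp300 Tbx5 was lower, at 14.83 and 14.82. Gata4 lay between 3.57 and 5.09 on all arrays, Ep300 at 9.90 on siCtrl and 9.47 on siEp300, and it is not known whether the probes cover the delivered sequences. Of 13 fibroblast markers, 11 passed the negative-control percentile on MEF, among them Col1a1 at 15.51, Fn1 at 18.12 and Vim at 19.04. Lum at 5.90 and Dcn at 8.54 did not. Dcn ran against most of the list, at 15.24 with GT/M1, 13.52 with GT/M2 and 14.27 with GT/M6. The cardiac markers Tnnt2 and Myl4, at 7.61 and 6.55 on MEF, were at 16.79 and 16.89 or more on each transduced array. Of 16 cardiac markers, 12 were at least 2-fold higher than MEF on each transduced array without siRNA and 10 on each siRNA array. The shares of all genes were 10.9% to 14.0%. Myl2 and Myl3 were not 2-fold higher on any array.

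**Figure D1:**
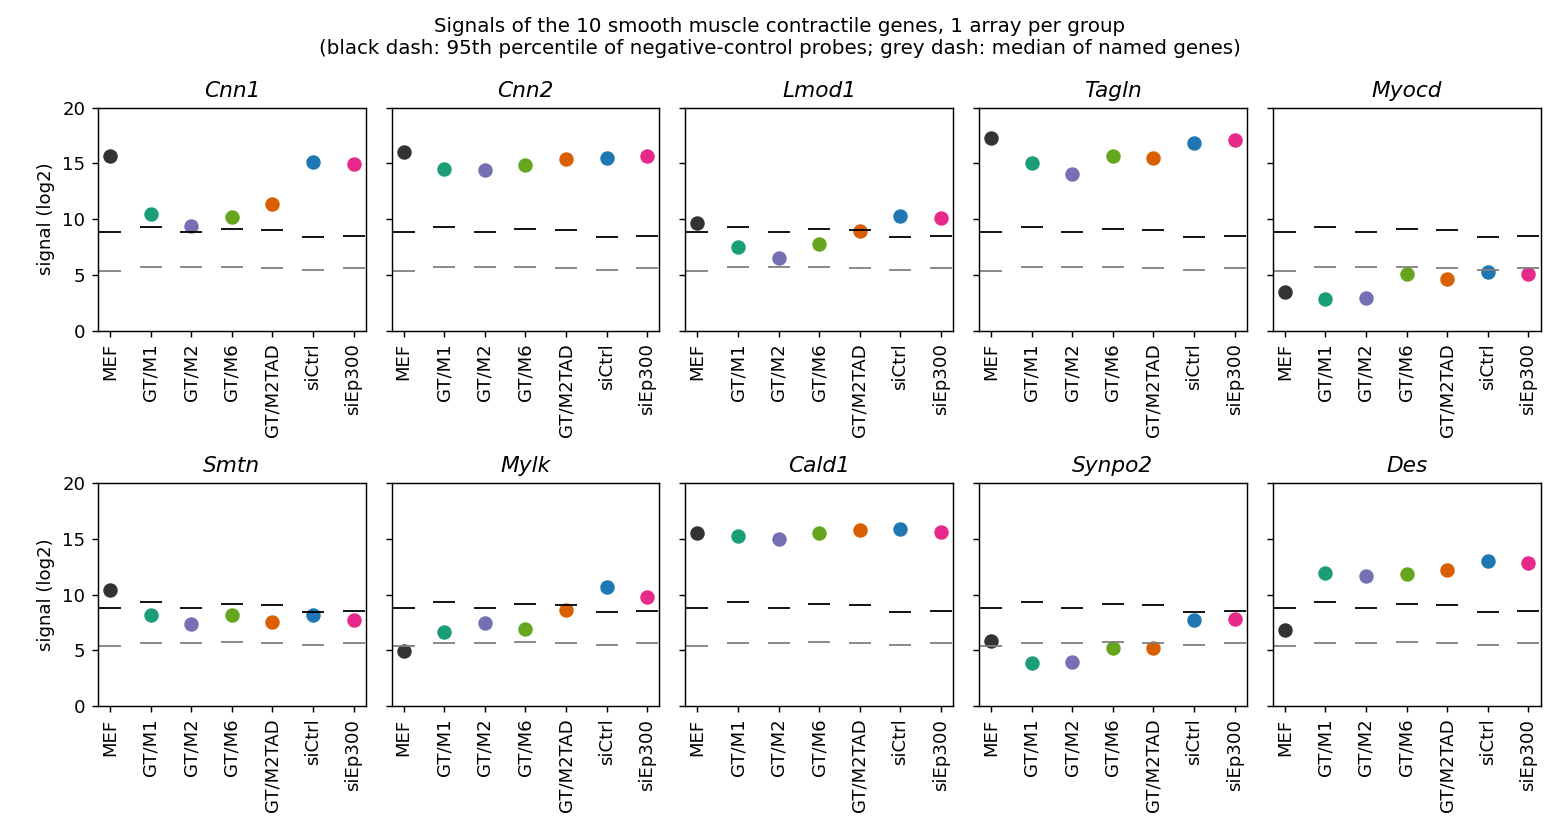
Signal (log2, vertical axis) of each of the 10 genes on the 7 arrays (horizontal axis, 1 point per array). Black dashes mark the 95th percentile of negative-control probes and grey dashes the median of named genes. Cnn1 is at 15.63 on MEF and between 9.39 and 11.38 on the 4 transduced arrays without siRNA, Des runs the other way, and the siRNA arrays have Cnn1 back at 15.10 and 14.94.

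Among the actin-binding members, Cnn1, Tagln and Smtn were at least 2-fold lower than MEF on all 4 transduced arrays without siRNA, Cnn2 and Lmod1 on the 3 with a native isoform, and Cald1 on none. Cnn1, calponin 1, a brake on actin-activated myosin ATPase, had signals of 15.63 on MEF, 10.42 with GT/M1, 9.39 with GT/M2, 10.18 with GT/M6, 11.38 with GT/M2TAD, 15.10 on siCtrl and 14.94 on siEp300. The 4 arrays without siRNA thus lay far under MEF, by 37.1-fold with GT/M1, 75.3-fold with GT/M2, 43.5-fold with GT/M6 and 18.9-fold with GT/M2TAD, while both siRNA arrays stayed within 2-fold of MEF. All 7 signals were above the 95th percentile of negative-control probes. In RNA from whole cultures, fewer cells that express a gene and less transcript per cell cannot be told apart.

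Tagln, transgelin or SM22, an early actin-bundling marker of smooth muscle, was at 17.28 on MEF, 15.00 with GT/M1, 14.08 with GT/M2, 15.68 with GT/M6, 15.48 with GT/M2TAD, 16.81 on siCtrl and 17.07 on siEp300. It too was lowest on GT/M2 and nearest to MEF on the siRNA arrays, with differences from MEF of -2.28 (GT/M1), -3.20 (GT/M2), -1.60 (GT/M6) and -1.80 (GT/M2TAD). Cnn2, calponin 2, which is also expressed outside muscle, was at 15.99 on MEF, 14.52 with GT/M1, 14.39 with GT/M2, 14.88 with GT/M6, 15.43 with GT/M2TAD, 15.46 on siCtrl and 15.65 on siEp300. It was 2-fold lower on the 3 native isoforms, while GT/M2TAD and both siRNA arrays stayed within 2-fold of MEF. Its difference on GT/M6, -1.10, became -0.91 after quantile normalization and -0.90 after level-dependent centring, so that count did not hold.

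Smtn, smoothelin, an actin-binding protein of contractile smooth muscle cells, was at 10.40 on MEF, 8.15 with GT/M1, 7.36 with GT/M2, 8.17 with GT/M6, 7.53 with GT/M2TAD, 8.18 on siCtrl and 7.70 on siEp300. Unlike Cnn1 and Tagln, it was low on the siRNA arrays too, at -2.22 and -2.70 against MEF. MEF was the only array on which it passed the negative-control percentile, so the lower signals are within the range of background. Lmod1, leiomodin 1, which nucleates actin filaments in smooth muscle, was at 9.64 on MEF, 7.47 with GT/M1, 6.52 with GT/M2, 7.74 with GT/M6, 8.89 with GT/M2TAD, 10.25 on siCtrl and 10.06 on siEp300. It was 2-fold lower on the 3 native isoforms, at -2.17, -3.13 and -1.91, and passed the negative-control percentile on MEF and both siRNA arrays alone.

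Cald1, caldesmon, which ties actin to myosin and tropomyosin and has a non-muscle form, varied least, with a range of 0.90 over the 7 arrays. Its signals were 15.55 on MEF, 15.29 with GT/M1, 15.00 with GT/M2, 15.52 with GT/M6, 15.78 with GT/M2TAD, 15.90 on siCtrl and 15.57 on siEp300. No array differed from MEF by 2-fold, and the direction of its differences from MEF turned with the scaling on GT/M6, GT/M2TAD and siEp300. The array reports this gene with 1 probe set, so the smooth muscle and non-muscle forms of caldesmon were not read separately.

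Mylk and Des were higher than MEF on all 6 transduced arrays. Des, desmin, the intermediate filament of smooth, cardiac and skeletal muscle alike, was at 6.80 on MEF, 11.96 with GT/M1, 11.64 with GT/M2, 11.86 with GT/M6, 12.22 with GT/M2TAD, 13.05 on siCtrl and 12.86 on siEp300. The transduced arrays lay within 1.41 of each other and at least 28.7-fold above MEF, where the signal was under the negative-control percentile. Mylk, myosin light chain kinase, was at 4.92 on MEF, 6.67 with GT/M1, 7.43 with GT/M2, 6.94 with GT/M6, 8.57 with GT/M2TAD, 10.65 on siCtrl and 9.82 on siEp300. Its order was siCtrl, siEp300, GT/M2TAD, then the native isoforms, then MEF, and it passed the negative-control percentile on the siRNA arrays alone.

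Synpo2, which encodes an actin-binding protein of Z-discs and dense bodies, was at 5.86 on MEF, 3.85 with GT/M1, 3.95 with GT/M2, 5.17 with GT/M6, 5.24 with GT/M2TAD, 7.75 on siCtrl and 7.77 on siEp300. It stood under MEF on the arrays without siRNA and above it on both siRNA arrays, but all 7 signals were under the negative-control percentile. Its difference on GT/M6, -0.69, became -1.02 after quantile normalization or median centring. Myocd, myocardin, the coactivator of SRF in smooth and cardiac muscle, was at 3.46 on MEF, 2.81 with GT/M1, 2.95 with GT/M2, 5.11 with GT/M6, 4.66 with GT/M2TAD, 5.22 on siCtrl and 5.12 on siEp300. None of these reached the floor, so Myocd was not counted in any comparison and its differences are between background signals. The other 9 members reached the floor on at least 3 arrays.

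Set against MEF, 6 of 10 members were at least 2-fold lower on GT/M1, 6 with GT/M2, 5 with GT/M6, 3 with GT/M2TAD, 1 on siCtrl and 1 on siEp300. Over all named genes the same count took 9.52%, 8.34%, 8.79%, 9.5%, 10.9% and 9.29%. Members at least 2-fold higher numbered 2 on each array without siRNA and 3 on each siRNA array, where 12.5%, 13.6%, 13.0%, 14.0%, 10.9% and 13.4% of all genes were. The members' median differences from MEF were -1.74, -1.75, -0.90, -0.59, 0.48 and 0.22 in the same order, beside all-gene medians between 0.012 and 0.12. These 6 comparisons share the MEF array. Cnn1, Cnn2, Tagln and Smtn lay under MEF on all 6 transduced arrays, 4 of 10 beside 27.2% of the 10959 genes that reached the floor on an array, and Mylk and Des lay above it on all 6, 2 of 10 beside 36.2%. Such orders of arrays, here and below, were chosen after the values were seen. The 10 members they are counted over include Myocd, which did not reach the floor, unlike the genes of the shares beside them.

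**Figure D2:**
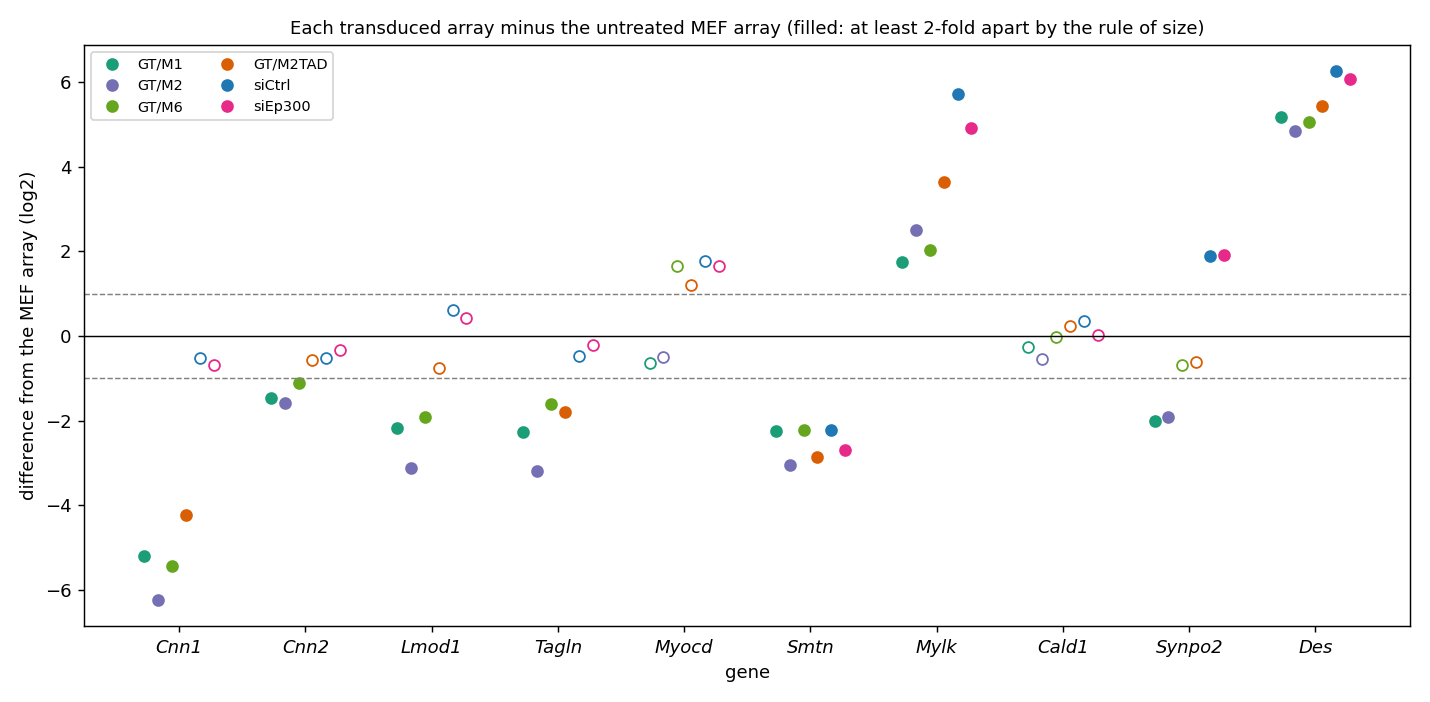
Difference of each transduced array from the MEF array (log2, vertical axis) for the 10 genes (horizontal axis), 1 point per array, filled where the difference counts as 2-fold. Dashed lines mark differences of 1 and -1. Cnn1 spans from -6.24 with GT/M2 to -0.53 on siCtrl, and Des lies between 4.84 and 6.25 on all 6 arrays.

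Whether the choice of isoform matters for these genes was read from the 3 native forms of Mef2c. GT/M2 was the lowest of the 4 arrays without siRNA for 7 of 10 members, namely Cnn1, Cnn2, Lmod1, Tagln, Smtn, Cald1 and Des, beside 22.4% of genes that reached the floor. Against GT/M1, 1 of 10 members was 2-fold lower on GT/M2, Cnn1 at -1.02, and 0 were higher, beside 1.39% and 1.9% of all genes. Lmod1 at -0.96 and Tagln at -0.92 lay just short of 2-fold. Quantile normalization placed both past it, at -1.07 and -1.02. Mylk went the other way, 0.76 higher on GT/M2.

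Between GT/M6 and GT/M1, 0 of 10 members were at least 2-fold higher and 0 lower, beside 0.646% and 0.292% of all genes, so the counts are those of the background. The members' median absolute difference, 0.269, was above the 0.223 of all genes. The 2 largest differences, 2.30 for Myocd and 1.32 for Synpo2, were between signals that did not reach the floor. Against GT/M2, Tagln was 1.60 and Lmod1 1.22 higher on GT/M6, so 2 of 10 members were 2-fold higher beside 1.85% of genes, and 0 were lower beside 1.71%. The Lmod1 signals were under the negative-control percentile on both arrays. The members' median difference was 0.80, and all but Mylk, at -0.49, were higher on GT/M6. Other lists differed between the same arrays: 7 of 13 fibroblast markers were 2-fold higher and 0 lower on GT/M6 than on GT/M2, with a median of 1.31, and 4 of 13 cell cycle genes were lower. Against GT/M1, 3 of 13 fibroblast markers were lower on GT/M2 and 1 of 13 cell cycle genes was higher, beside 1.39% and 1.9% of all genes. Krt19, an epithelial keratin, was at 6.58 on MEF, 10.22 with GT/M1, 12.70 with GT/M2, 9.05 with GT/M6, 10.46 with GT/M2TAD, 7.72 on siCtrl and 8.25 on siEp300, and so was highest where most members were lowest. Krt18, another keratin of that list, went the other way, at 7.05 with GT/M2 beside 8.15 with GT/M1, both under the negative-control percentile. Of the 10 epithelial markers, at most 1 passed the negative-control percentile on any array, and their summed signal ran from 40.25 on MEF to 48.25 on GT/M2. The part of these lists in the members' differences was not tested.

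The fused form was compared with plain isoform 2 to ask what the MyoD domain changed. All 10 members were higher on GT/M2TAD than on GT/M2, by 0.17 for Smtn to 2.37 for Lmod1, with a median of 1.22 against 0.0020 for all genes. At least 2-fold higher were Lmod1, Cnn1 at 1.99, Tagln at 1.39, Mylk at 1.14 and Cnn2 at 1.03, which makes 5 of 10 beside 2.96% of all genes, and 0 were lower beside 3.33%. After quantile normalization Cnn2 was at 0.98. GT/M2 was the lowest of the arrays for most of these genes, so the comparator matters. Against the mean of the 3 native isoforms, Lmod1 was 1.65, Mylk 1.55 and Cnn1 1.39 higher, 3 of 10 in all, while Tagln was 0.56 and Cnn2 0.83 higher and Smtn was at -0.36.

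GT/M2TAD lay above each of the 3 native isoforms for Cnn1, Cnn2, Lmod1, Mylk, Cald1, Synpo2 and Des, 7 of 10 beside 31.4% of genes that reached the floor. For Tagln, GT/M6 was higher, at 15.68 beside 15.48. For Cnn1 the isoforms ran from 9.39 to 10.42 and GT/M2TAD stood at 11.38, still 4.24 under MEF. For Lmod1 they ran from 6.52 to 7.74 and GT/M2TAD stood at 8.89, within 2-fold of MEF except after median centring, where its difference was -1.01. Other lists differed between the same arrays, with 11 of 13 cell cycle genes at least 2-fold lower on GT/M2TAD than on GT/M2, and 4 of 13 fibroblast markers higher and 2 lower. Of all genes, 2.96% were higher and 3.33% lower. Their part in the members' differences was not tested.

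The siRNA arrays stood apart from the other transduced arrays. Tbx5 was lower on them, at 14.83 and 14.82 beside 16.14 to 16.23. In comparisons of these arrays with the others, siRNA transfection, any difference in the form of Mef2c and the level of Tbx5 cannot be told apart. Both siRNA arrays lay above all 4 others for Cnn1, Cnn2, Lmod1, Tagln, Myocd, Mylk, Synpo2 and Des, 8 of 10 beside 17.3% of genes that reached the floor. Myocd, 1 of these 8, reached the floor on no array, so it is outside the genes of that share. After quantile normalization Cnn2 left this set. On siCtrl, Cnn1 was 3.71, Synpo2 2.51, Mylk 2.08, Lmod1 1.36 and Tagln 1.33 higher than on GT/M2TAD, so 5 of 10 members were 2-fold higher and 0 lower, beside 3.04% and 6.38% of all genes. Cnn2 differed by 0.032. Des at 0.84 passed 2-fold, at 1.02, after median or level-dependent centring. Against GT/M2, the form given in the titles, 7 of 10 members were 2-fold higher on siCtrl beside 5.30% of all genes, among them Cnn1 at 5.70, Synpo2 at 3.80, Lmod1 at 3.73 and Mylk at 3.22, and 0 were lower beside 11.2%. Scaling moved this count: Cnn2 at 1.06 became 0.97 after quantile normalization, while Smtn at 0.83 passed 2-fold under all 3 rescalings and Cald1 at 0.90 after median centring.

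Markers of other states differed on the same siRNA arrays. Fibroblast markers above the negative-control percentile numbered 11 of 13 on MEF and on both siRNA arrays and 8 to 10 on the other 4, and their summed log2 signal was 176.04 to 176.82 on MEF and the siRNA arrays and 144.09 to 158.06 on the others. Those near-equal sums hide opposite differences. On siCtrl 3 of the 13 were 2-fold higher than MEF, Postn at 3.46, Lum at 2.34 and Dcn at 1.58. Col6a3 at -5.2 and Pdgfrb at -1.10 were lower, and 10.9% of all genes were called in each direction. Lum was under the negative-control percentile on both arrays. Cell cycle genes summed to 166.08 on MEF, 95.66 to 121.82 on the other transduced arrays, 81.44 on siCtrl and 88.05 on siEp300. Of 15 skeletal muscle markers, 6 were at least 2-fold higher on siCtrl than on MEF, beside 10.9% of all genes. Among them were Myh8 at 8.14 beside 4.88, Myh2 at 6.95 beside 3.88 and Tnnt3 at 9.26 beside 6.32. Myh8 and Myh2 were under the negative-control percentile on both arrays, and 2 of the 15 markers passed it on siCtrl. The summed signal of the 15 was 70.85 on MEF, 73.77 to 76.50 on the transduced arrays without siRNA and 85.36 to 86.52 on the siRNA arrays. The skeletal regulators Myod1, Myog, Myf5 and Myf6 did not reach the floor on any array. Cardiac markers summed to 155.33 and 158.95 on the siRNA arrays, 167.85 to 177.66 on the other transduced arrays and 88.21 on MEF. The part of these differences in the members' signals was not tested.

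siEp300 was compared with siCtrl, the study's contrast for Ep300. Ep300 itself was at 9.47 beside 9.90, under 2-fold apart, where the median absolute difference of all genes was 0.325. On siEp300 it was at its lowest, as the other arrays ran from 9.87 to 10.22. With 1 array per group, how far Ep300 was lowered is not settled. Of the 10 members, 0 were at least 2-fold higher and 0 lower, beside 1.93% and 0.39% of all genes, shares at which a count of 0 says nothing particular of the members. Differences ran from -0.82 for Mylk to 0.26 for Tagln, with a median of -0.17 against 0.14 for all genes. Cnn1 was at -0.16, Des at -0.19, Lmod1 at -0.19 and Smtn at -0.49. Mylk, the member furthest apart, reached -1.01 after quantile normalization and after level-dependent centring, which makes it 2-fold lower there. The members' median absolute difference of 0.19 was under that of all genes, whereas in each of the other 12 comparisons it was above it. The single pair of arrays gives no interval for any of these differences.

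**Figure D3:**
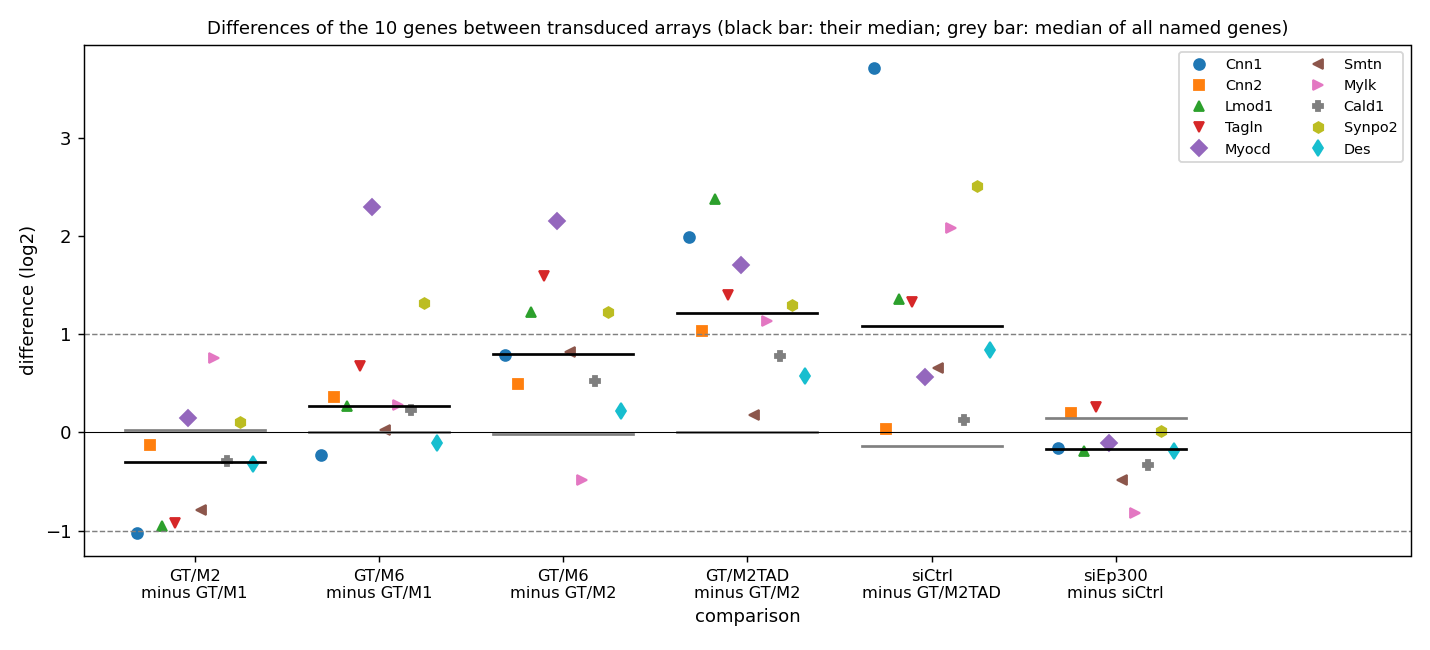
Differences of the 10 genes (log2, vertical axis) in 6 comparisons between transduced arrays (horizontal axis), 1 symbol per gene. Black bars give the members' median and grey bars that of all named genes: 1.22 and 0.0020 for GT/M2TAD minus GT/M2, and -0.17 and 0.14 for siEp300 minus siCtrl.

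Other genes of the same apparatus were read from lists drawn up by function. Of 14 measured filament partners, such as smooth muscle actins, myosin and tropomyosins, 7 were at least 2-fold lower than MEF on GT/M1, 11 with GT/M2, 5 with GT/M6 and 2 with GT/M2TAD, and 2 were higher on GT/M2TAD and 0 on the native isoforms. On siCtrl 4 were higher and 1 lower, and on siEp300 3 and 1. The shares of all genes were 8.34% to 10.9% lower and 10.9% to 14.0% higher. Actg2, enteric smooth muscle actin, was at 16.86 on MEF, 11.50 with GT/M1, 11.48 with GT/M2, 12.60 with GT/M6, 13.51 with GT/M2TAD, 15.05 on siCtrl and 14.90 on siEp300, an order close to that of Cnn1. Myh11, the smooth muscle myosin heavy chain, was at 9.80 on MEF, 6.59 to 6.82 on the native isoforms, 8.79 with GT/M2TAD, 12.26 on siCtrl and 12.01 on siEp300. It thus passed MEF on the siRNA arrays, as did Kcnmb1, a subunit of the smooth muscle potassium channel, at 10.91 on siCtrl beside 7.18 on MEF. Acta2, smooth muscle alpha actin and a marker of activated fibroblasts, was at 19.66 on MEF and between 18.24 and 19.58 on the others. On GT/M2TAD against GT/M2, 7 of 14 partners were 2-fold higher and 0 lower, beside 2.96% and 3.33% of all genes. On siEp300 against siCtrl 0 were apart, where 1.93% of all genes were higher and 0.39% lower, so that count is near the background.

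Of 13 measured genes that control phosphorylation of the light chain, 2 were 2-fold higher than MEF on each native isoform and 3 with GT/M2TAD, siCtrl and siEp300, and 0 were lower on any transduced array. Both counts are near the shares of all genes given above for these comparisons, so they set the list apart in neither direction. Prkg1, the cyclic GMP-dependent kinase that relaxes smooth muscle, was at 8.17 on MEF, 10.96 with GT/M1, 10.03 with GT/M2, 10.78 with GT/M6, 12.02 with GT/M2TAD, 12.34 on siCtrl and 12.21 on siEp300. Arhgef12, an activator of RhoA, was at 8.90 on MEF and between 10.61 and 12.45 on the transduced arrays. Both ran with Mylk in being higher than MEF on all 6.

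Of 15 measured partners and opponents of SRF, 5 were at least 2-fold lower than MEF on GT/M1, 3 with GT/M2, 5 with GT/M6, 4 with GT/M2TAD, 3 on siCtrl and 4 on siEp300, and 2 were higher on each. The shares of all genes were 8.34% to 10.9% lower and 10.9% to 14.0% higher, so the count of higher genes is near that of all genes. Srf itself was at 11.31 on MEF and between 8.97 and 9.63 on all 6 transduced arrays, the siRNA arrays among them at 9.21 and 9.63. On the siRNA arrays, where Srf was low, Cnn1 and Tagln were near MEF, while Smtn was low, at 8.18 and 7.70 beside 10.40. The part of Srf in the members' signals was not tested. Mrtfa, a myocardin-related coactivator, was at 8.49 on MEF, 7.12 to 7.74 on the native isoforms, 9.27 with GT/M2TAD, 10.09 on siCtrl and 9.67 on siEp300. Its signals on MEF and the native isoforms were under the negative-control percentile. Mrtfb, another myocardin-related coactivator, ran differently, at 12.04 on MEF, 13.35 to 13.55 on the native isoforms and 13.47 with GT/M2TAD. On siCtrl Mrtfb was at 12.16 and on siEp300 at 12.29. Elk3, an ETS-family partner of SRF, was at 12.93 on MEF and between 9.20 and 11.50 elsewhere. Tgfb1i1, or Hic-5, a focal adhesion coactivator, was at 13.31 on MEF, 10.62 with GT/M2 and 12.96 with GT/M2TAD.

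**Figure D4:**
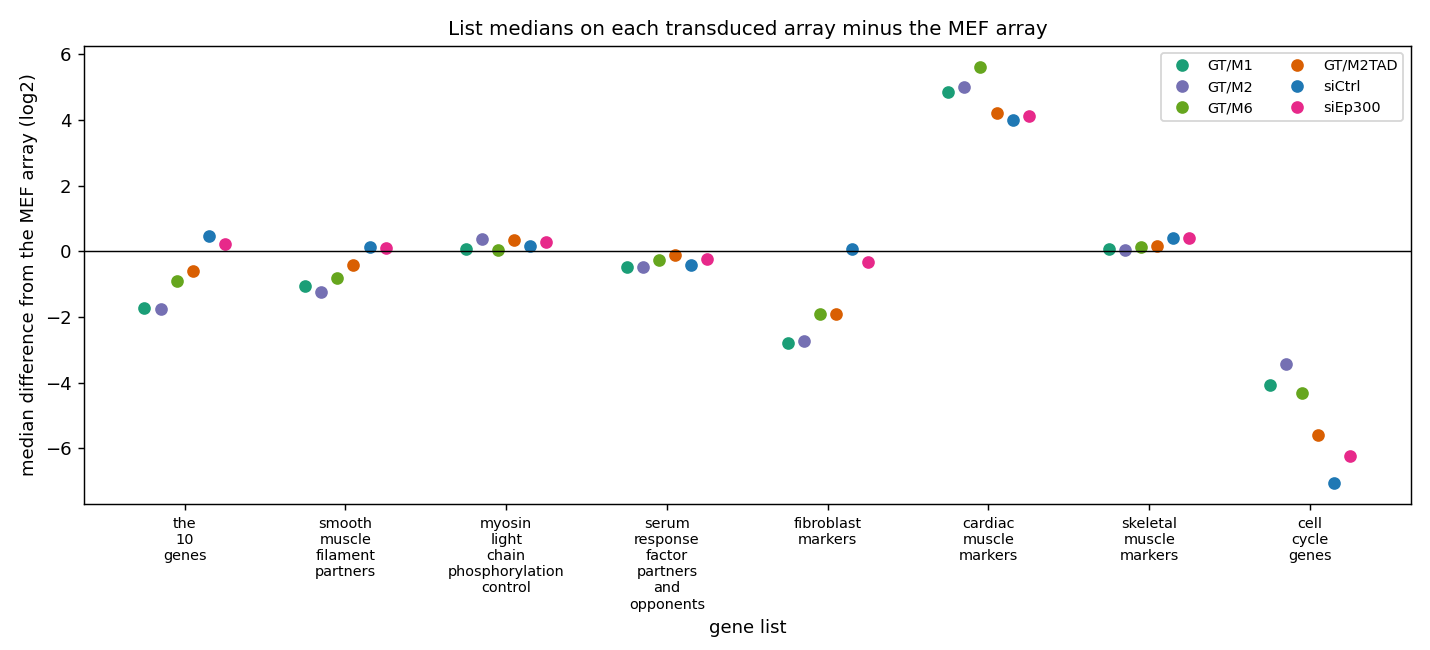
Median difference from the MEF array (log2, vertical axis) of the 10 genes and of 7 gene lists (horizontal axis), 1 point per transduced array. The median of the 10 genes is 0.48 on siCtrl and 0.22 on siEp300 and lies from -1.75 to -0.59 on the other 4, while cell cycle genes are lowest on the siRNA arrays.

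For each member whose signals spanned at least 2, the genes with the most similar profile were found by the root mean square difference of the 2 profiles over the 7 arrays, each centred on its own mean. The closest to Cnn1 were Srpx2 at 0.44, Lrrc15 at 0.46 and Pdgfrb at 0.54. The closest to Lmod1 were Tpm2 at 0.26, Cacng7 at 0.29 and Ptprb at 0.34, and the closest to Tagln were Ifi211 at 0.26, Dusp1 at 0.27 and Cdh11 at 0.28. Des was nearest to Enpp5 at 0.29, Dmpk at 0.30 and the cardiac troponin gene Tnnc1 at 0.33, and Mylk to Arhgef6 at 0.37, Itga7 at 0.54 and Abra at 0.575. Synpo2 was nearest to Gask1b at 0.28, Cdo1 at 0.32 and Tgfb3 at 0.34. Smtn had the smallest distances, to Slc6a15 at 0.11, Phf19 at 0.13 and Dock10 at 0.19. Slc6a15, Phf19 and Dock10 were under the negative-control percentile on all 7 arrays, and Smtn passed it on MEF alone. Myocd was nearest to Syn1, Itgb1bp2 and Mt2, at 0.44, 0.48 and 0.51. Among the members themselves, Cald1 and Cnn2 at 0.40, Tagln and Lmod1 at 0.51 and Synpo2 and Lmod1 at 0.60 were closest. These distances describe 7 arrays and depend on the size of the signals' swing.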

How the data were processed

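RNA from 7 cultures was hybridised to 7 arrays, 1 per group. The authors deposited log2 signals per probe set, made with SST-RMA per the series text and Affymetrix Expression Console 1.4 per the submitters' processing notes, with settings not given in the sources used here. Because arrays were normalized together, a change common to most genes may not show, and signals near background understate differences. Of 28846 probe sets, 19572 carried 1 gene symbol and were used, covering 19505 genes. Where a gene had more than 1 probe set (55 genes, no member among them), the one with the highest mean was kept. The number of arrays limits the precision. Members, lists, comparisons and patterns were chosen with earlier results of these data known. Named genes were the 10 members, the 3 largest 2-fold differences of each list in the comparison described, the label checks, and the 3 closest profiles per member. List genes given for other reasons (Acta2, Mrtfa, Mrtfb, Tgfb1i1, relatives of the members, fibroblast, cardiac, pericyte and regulator genes, and the pairs of members with close profiles) were chosen after their values were seen. The 13 comparisons were recomputed after quantile normalization, median centring and centring by level (lowess span 0.3), with other floors and folds. The counting script alone, not the reported differences, was tested on simulated data. Python 3.11.15, pandas 2.3.3, numpy 2.4.6 and statsmodels 0.14.6 were used. RefSeq GRCm38.p6 tables gave promoter windows, matched by symbol, and the Entrez identifiers.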

Additional observations from a re-analysis of the deposited data

Results flagged for a closer look

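Synpo2 moved in opposite directions from MEF on different arrays, by at least 2-fold each way. It was at -2.01 with GT/M1 and -1.91 with GT/M2, and at 1.89 on siCtrl and 1.91 on siEp300. The difference between these arrays was not tested, since each is a single array, and all of the signals lay under the negative-control percentile.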

How the results depend on the processing

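The 130 differences of members (10 genes in 13 comparisons) shifted by at most 0.39 with level-dependent centring, 0.35 with quantile normalization and 0.33 with median centring, and no 2-fold difference turned its direction. Averaging probe sets changed nothing, since each member has 1. Counts of members that moved by over 1.5 times were as follows. With the floor at the negative-control percentile, members higher than MEF numbered 1 on each array without siRNA, as Mylk was no longer counted, members higher on GT/M6 than on GT/M2 1, and members higher on GT/M2TAD than on GT/M2 3. Of the 19505 named genes, 1273 (GT/M1), 1596 (GT/M2), 1437 (GT/M6) and 1629 (GT/M2TAD) were then higher than MEF. Against GT/M2, 175 were higher on GT/M6 and 384 on GT/M2TAD. With no floor, 2 were higher on GT/M6 than on GT/M1 and 4 than on GT/M2, with Myocd and Synpo2 added. Of all named genes, 192 and 459 were. With a 4-fold threshold, 1 was higher on GT/M1 than on MEF, 2 lower on GT/M6 than on MEF, 0 lower on GT/M2 than on GT/M1, 0 higher on GT/M6 than on GT/M2, 1 higher on GT/M2TAD than on GT/M2 and 3 higher on siCtrl than on GT/M2TAD. In the same order, the counts over all named genes were 975, 667, 38, 54, 86 and 179. With a 1.5-fold threshold, 5 were lower on GT/M2TAD and 2 on siEp300 than on MEF, 1 was higher and 4 lower on GT/M2 than on GT/M1, 1 was higher on GT/M6 than on GT/M1 and 4 than on GT/M2, and 1 was lower on siEp300 than on siCtrl. Over all named genes these counts were, in the same order, 2746, 2772, 1359, 813, 595, 916 and 393. Quantile normalization left 3 lower on GT/M2 than on GT/M1 and 1 lower on siEp300 than on siCtrl, and level-dependent centring 2 and 1. Of all named genes, 344 and 168 were lower after quantile normalization and 342 and 156 after level-dependent centring. The mean of the native isoforms as comparator for GT/M2TAD left 3 higher, beside 507 of all named genes. Apart from the fold, the floor and the comparator, which act by construction, the cause was not tested. The split of all genes also moved: 83.2% of the genes apart between siEp300 and siCtrl (377 and 76) were higher, against 48.9% (161 and 168) with quantile normalization, 58.0% (195 and 141) with median and 51.2% (164 and 156) with level-dependent centring. For siCtrl minus GT/M2TAD it was 32.2%, against 51.7%, 49.4% and 56.0%, for siCtrl minus GT/M2 1033 higher and 2177 lower, against 1441 and 1442, 1451 and 1458, and 1525 and 1356, for GT/M2 minus GT/M1 57.7%, against 46.5%, 55.7% and 45.9%, for siEp300 minus MEF 59.1%, against 49.8%, 47.8% and 51.3%, and for isoforms 1, 2 and 6 and the fused form minus MEF 56.8%, 61.9%, 59.7% and 59.6%, against 41.9%, 46.8%, 43.1% and 47.5% after median centring, which shifts the median of all genes to -0.22, -0.25, -0.25 and -0.17. No paired analysis was possible because each group had 1 array. For the same reason no array could be left out.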

Other observations

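Of 12 measured relatives of the members, 3 were at least 2-fold higher than MEF on GT/M1, 5 with GT/M2, 4 with GT/M6, 4 with GT/M2TAD and 5 on each siRNA array, and 1, Tagln2, was lower on all 6. The shares of all genes were 10.9% to 14.0% higher and 8.34% to 10.9% lower, so the count of lower genes is near that of all genes. Of those higher on GT/M2, Lmod2, Lmod3 and Smtnl2 were under the negative-control percentile on both arrays, and Synpo and Synpo2l were not. Tagln2, a transgelin of non-muscle cells, was at 16.72 on MEF and between 11.42 and 12.94 on all 6 transduced arrays, and unlike Tagln it was no higher on the siRNA arrays than on the others. Synpo2l, the Z-disc relative of Synpo2 in heart and skeletal muscle, was at 5.35 on MEF, 9.50 with GT/M1, 12.70 with GT/M2, 10.21 with GT/M6, 15.12 with GT/M2TAD, 16.38 on siCtrl and 15.33 on siEp300. Lmod2, the leiomodin of striated muscle, was at 4.60 on MEF, 6.63 with GT/M1, 8.79 with GT/M2, 5.83 with GT/M6 and 9.67 with GT/M2TAD, so that GT/M2 was above GT/M1 and GT/M6 for Lmod2 and Synpo2l and under both for Lmod1. With each native isoform, Lmod1 and Lmod2 were under the negative-control percentile, and Synpo2l was above it. The opposite orders of Lmod1 and Lmod2 are thus between signals within the range of background. Cnn3 lay between 15.48 and 16.36 on all arrays.

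Of 13 measured pericyte and vascular smooth muscle markers, 6 were at least 2-fold lower and 4 higher on GT/M2 than on MEF. The shares of all genes were 8.34% and 13.6%. The 4 higher were Anpep, at 11.94 with GT/M2 beside 6.50 on MEF, and Kcnj8, Notch3 and Rgs5. Signals of Kcnj8, Notch3 and Rgs5 were under the negative-control percentile on both arrays. Cspg4, a proteoglycan of pericytes, was at 12.41 on MEF, 7.57 with GT/M1, 8.17 with GT/M2, 8.57 with GT/M6, 11.27 with GT/M2TAD, 12.37 on siCtrl and 11.70 on siEp300. Macrophage markers were under the negative-control percentile on every array, 0 of 9, and endothelial markers had 1 of 9 above it on MEF and 0 on the others. Of 10 epithelial markers, 0 passed it on MEF and GT/M6 and 1 on each other array. That marker was Krt19 on GT/M1, GT/M2 and GT/M2TAD, and Krt18 on siCtrl at 8.57 and siEp300 at 9.46.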
